A study of Rattus norvegicus with 12 samples.

Results

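The 10 transcription factor genes described here were Egr1, Egr2, Egr3, Etv1, Etv4, Etv5, Ets1, Ets2, Elk3 and Myc, out of 18166 genes with a symbol on the array. They were chosen by name, with earlier results of these data known. Each had 1 feature of the array that carried its symbol alone, and all 10 passed the limit on dim signals, a mean log2 value of 5.83, with no array of any of them below that limit. The cells were skin-derived precursors (SKPs), dermal precursor cells that grow as floating spheres, from newborn Sprague-Dawley rats. Dissociated secondary spheres were kept for 24 h with 100 nM trimebutine maleate together with 100 nM trametinib, with 100 nM trimebutine maleate alone, with 100 nM alprostadil, or with vehicle. The 12 arrays, 3 to a group, came from 3 independent isolates. The labels do not say whether a replicate number marks the same isolate in every group. The medium of all groups contained FGF2 and EGF, which signal through receptor tyrosine kinases.

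Trametinib blocks MEK, which phosphorylates and so activates ERK. Alprostadil is prostaglandin E1, which raises cyclic AMP through its Gs-coupled receptors, and trimebutine is given for disorders of gut motility and binds opioid receptors as well as ion channels. No group received trametinib alone, so that the effect of trametinib is seen only on top of trimebutine. The series title places the study in a screen for drugs that improve skin repair.

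Growth factors drive these 3 families through the RAS, RAF, MEK and ERK cascade, by different routes. ERK phosphorylates ternary complex factors of the ETS family, which sit beside serum response factor (SRF) on the CArG box and switch on immediate early genes such as Egr1. The PEA3 group (Etv1, Etv4 and Etv5) is held down by the repressor Capicua (Cic), which ERK signalling relieves. MYC protein is stabilised by ERK phosphorylation, so that the transcript is only one of the levels at which MYC is controlled. ETS proteins bind a GGAA core, EGR proteins a GC-rich element through 3 zinc fingers, and MYC binds the E-box with its partner MAX.

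The promoters of the 2 EGR genes and of Etv1 are shown because they carry the CArG box that ties immediate early genes to SRF. Sequences are from RefSeq, build GRCr8. The promoter windows used run from 250 bases before to 50 bases after the start and covered 6 of the 10 genes (Egr1, Egr2, Etv1, Etv5, Ets2 and Elk3). The start is the one each window was built on. For Etv1, Egr2 and Elk3 the whole window lies inside the gene's span in the same build, for Elk3 far inside it. Those windows are therefore not the promoter at the outer end of the gene. Capitals mark the CArG box (10 letters that begin with CC and end with GG) and the letters TGACG, an end of the cyclic AMP response element, which here reads CGTCA because it lies on the other strand. The stretches are chr18:26736928-26737027 (plus strand) for Egr1, chr20:21054492-21054591 (minus strand) for Egr2 and chr6:61317179-61317278 (plus strand) for Etv1.
Egr1: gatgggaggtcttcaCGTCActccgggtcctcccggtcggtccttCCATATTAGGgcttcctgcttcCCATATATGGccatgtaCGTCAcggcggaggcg
Egr2: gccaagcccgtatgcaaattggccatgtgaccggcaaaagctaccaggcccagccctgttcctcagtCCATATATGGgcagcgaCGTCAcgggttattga
Etv1: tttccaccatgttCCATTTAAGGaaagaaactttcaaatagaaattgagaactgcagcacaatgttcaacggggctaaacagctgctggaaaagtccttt

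The CArG box occurred in 3 of the 6 windows and in 1.64% of the 33469 promoter windows of 300 bases in the table. Egr1 had 2 of them, beginning 105 and 83 bases before the start, Egr2 had 1 that began 83 bases before the start, and Etv1 had 1 that began 237 bases before it. The box nearest the start was the same 10 letters at the same distance in Egr1 and Egr2, CCATATATGG, and in both genes a TGACG began 66 bases before the start on the other strand. In Egr1 the ETS core GGAA, on the other strand, overlapped the first letters of both boxes. In Etv1 it overlapped the first letters of the box on the other strand and the last letters on the plus strand. Windows with TGACG made up 21.2% of the table, and Ets2 also had one, 45 bases before its start. Searched on both strands, GGAAGT (22.6% of windows) matched only in Ets2, and TGACGTCA (1.83%), the EGR elements GCGGGGGCG and GCGTGGGCG (3.2%) and the E-box CACGTG (6.42%) matched in none of the 6. The shorter core GGAA, in 95.8% of all windows, was in each of the 6. These matches describe the letters in these windows and show no binding. Windows for Etv4, Ets1, Egr3 and Myc were not analysed here.

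Adding trametinib to trimebutine lowered 7 of the 10 genes and raised 1. Egr1, Egr2, Egr3, Etv1, Etv4, Etv5 and Elk3 were lower than with trimebutine alone, Ets2 was higher, and Ets1 and Myc did not pass the test (limma, Benjamini-Hochberg adjusted p under 0.05 over all 13636 genes tested). Changes are differences of mean log2 values, on a scale where a difference of 1 is a doubling. The largest fall, of Egr1, was 5.86-fold. This contrast changed much of the transcriptome, with 33.4% of all tested genes past the threshold in either direction, 16.8% higher and 16.6% lower, against 8 of 10 here. The median change of the 10 genes was −0.85, beside 0.03 over all tested genes. Since the 10 genes were chosen with earlier results of these data known, neither comparison is independent evidence. In 8 of the 10 genes the 3 arrays of one group lay wholly above or below those of the other, as did 45.8% of all tested genes. With 3 arrays a group, the number of arrays limits the precision.

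**Figure D1:**
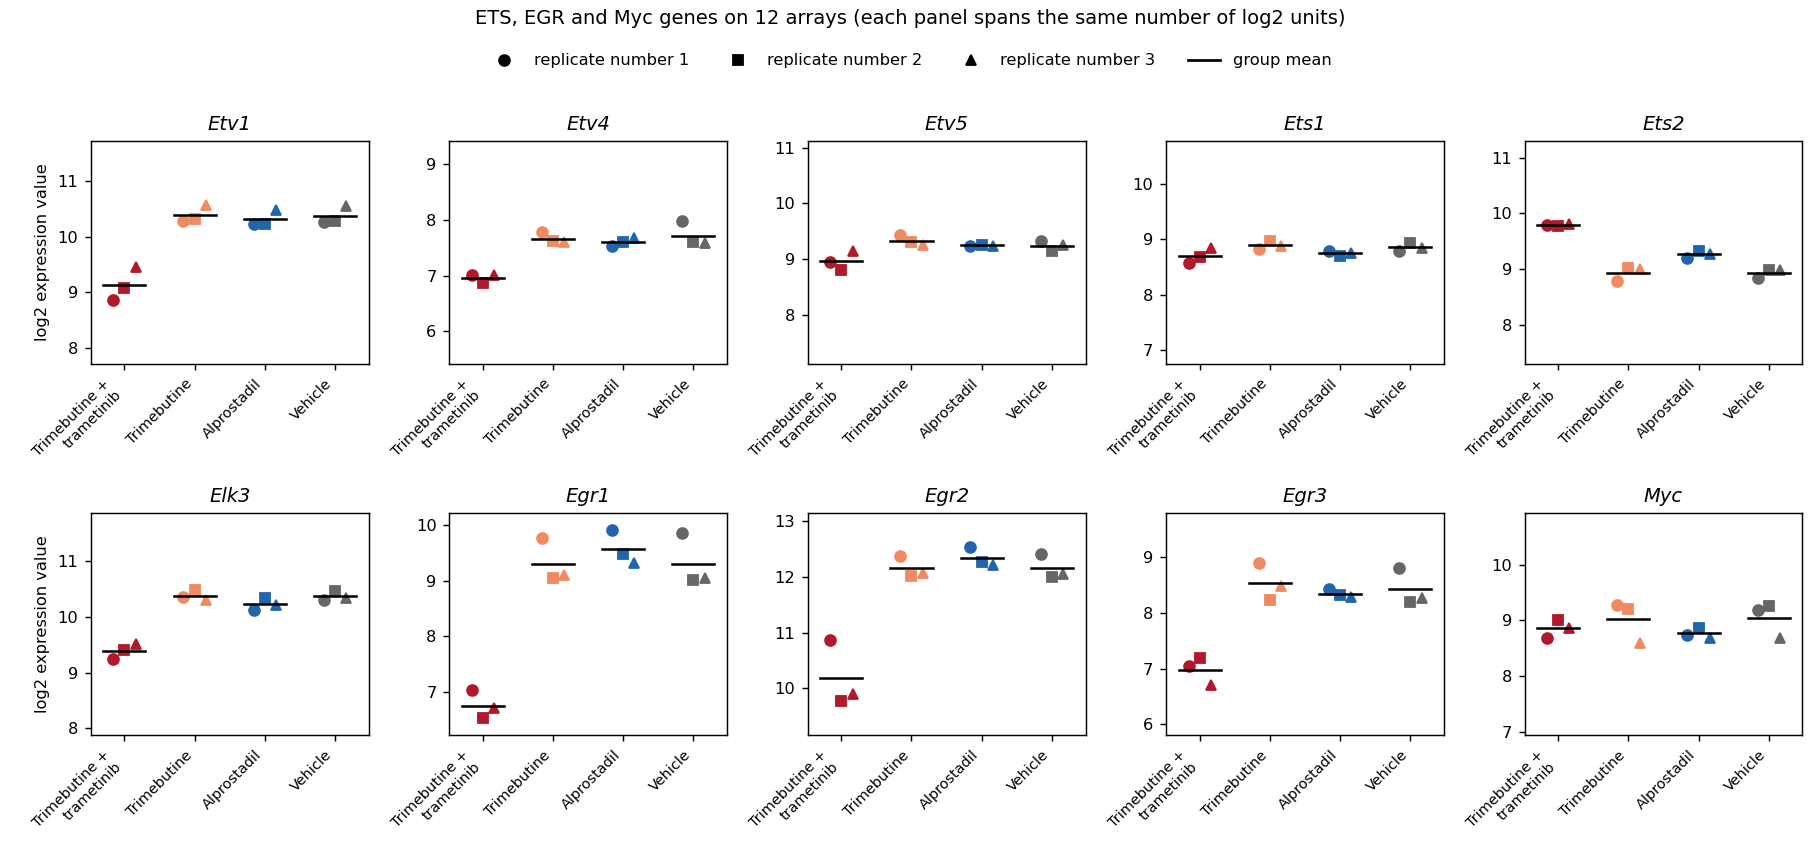
Log2 expression of the 10 genes on each of the 12 arrays, 1 panel a gene, with groups along the horizontal axis, marker shapes for the replicate number and a line for each group mean. The arrays with trametinib lie below the other 9 arrays for Egr1, Egr2, Egr3, Etv1, Etv4, Etv5 and Elk3, for Etv5 only just. They lie above the other arrays for Ets2 and overlap them for Ets1 and Myc.

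The EGR genes encode zinc finger factors that are switched on within minutes of growth factor stimulation. Egr1 had log2 values of 7.03, 6.53 and 6.70 with trimebutine and trametinib, 9.76, 9.05 and 9.10 with trimebutine, 9.91, 9.48 and 9.32 with alprostadil, and 9.85, 9.01 and 9.04 with vehicle. The highest array with trametinib was about 2 log2 units below the lowest array of any other group. The fall against trimebutine was 2.55 ± 0.256 on the log2 scale (SE; 95% interval of the change −3.11 to −1.99; limma adjusted p = 1.61e-05), the largest among the 10 genes. Within replicate numbers the 3 differences were −2.73, −2.53 and −2.40.

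Egr2, which in Schwann cells drives myelination and which fibroblasts also induce on stimulation, fell as well. Its values were 10.86, 9.76 and 9.90 with trimebutine and trametinib, 12.38, 12.02 and 12.07 with trimebutine, 12.54, 12.26 and 12.22 with alprostadil, and 12.41, 11.99 and 12.05 with vehicle. Replicate 1 with trametinib stood about 1 log2 unit above the other two of its group, yet below every array of the other 3 groups. The change was −1.98 ± 0.241 (SE, limma adjusted p = 6.87e-05), a 3.95-fold fall, and the paired differences of −1.52, −2.26 and −2.16 show the smaller step in replicate 1. The mean log2 level of the 3 measured Schwann cell markers, of 5 listed, ranged from 6.94 to 7.26 with trimebutine and trametinib and from 6.75 to 7.06 with trimebutine. Of these S100b (0.58) passed with the replicate block (limma adjusted p = 1.45e-05) and none without it.

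Egr3, itself a target of EGR proteins in other cells, fell 2.95-fold (log2 change −1.56 ± 0.191 SE, limma adjusted p = 7.08e-05). It had 7.05, 7.19 and 6.70 with trimebutine and trametinib, 8.90, 8.24 and 8.48 with trimebutine, 8.43, 8.33 and 8.29 with alprostadil, and 8.81, 8.21 and 8.26 with vehicle. No array with trametinib reached the lowest of the other arrays.

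Among the PEA3 factors, which in development act downstream of FGF receptors, the sizes of the falls differed. Etv1 had 8.86, 9.08 and 9.45 with trimebutine and trametinib, 10.28, 10.32 and 10.58 with trimebutine, 10.23, 10.22 and 10.48 with alprostadil, and 10.27, 10.29 and 10.55 with vehicle. Replicate 3 was the highest of each group. The change with trametinib was −1.26 ± 0.145 (SE, limma adjusted p = 4.49e-05), 2.4-fold down, and −1.42, −1.24 and −1.13 within replicate numbers.

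Etv4 had values of 7.012, 6.861 and 7.004 with trimebutine and trametinib, 7.78, 7.63 and 7.60 with trimebutine, 7.54, 7.61 and 7.67 with alprostadil, and 7.98, 7.61 and 7.58 with vehicle. Its fall was 1.63-fold (log2 change −0.71 ± 0.101 SE, limma adjusted p = 0.000224), and the groups with and without trametinib did not overlap. Etv5 changed least of the genes that passed, by −0.37 ± 0.087 (SE, limma adjusted p = 0.00621). Its values were 8.94, 8.80 and 9.13 with trimebutine and trametinib, 9.44, 9.30 and 9.25 with trimebutine, 9.24, 9.26 and 9.24 with alprostadil, and 9.33, 9.14 and 9.25 with vehicle.

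The Etv5 groups lay close to each other. The highest array with trametinib, replicate 3, lay only just below the lowest vehicle array, replicate 2. Against trimebutine, Etv5 passed without any of the 6 arrays of that contrast in turn (limma adjusted p up to 0.0301). Against vehicle the change was −0.28 (limma adjusted p = 0.0248) and no longer passed without vehicle replicate 1 (0.0947), vehicle replicate 3 (0.0589), or replicate 1 (0.0636) or 2 (0.104) with trametinib. Against alprostadil it was −0.29 (limma adjusted p = 0.0218) and was lost without alprostadil replicate 2 (0.0567) or 3 (0.0501), or replicate 1 (0.0565) or 2 (0.0927) with trametinib.

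Ets2, an ETS factor that ERK phosphorylates directly, was the only one of the 10 genes that rose with trametinib. Its values were 9.79, 9.77 and 9.82 with trimebutine and trametinib, 8.78, 9.01 and 8.99 with trimebutine, 9.21, 9.33 and 9.27 with alprostadil, and 8.836, 8.977 and 8.985 with vehicle. The groups formed 3 levels: trametinib highest, alprostadil between, and trimebutine and vehicle lowest and overlapping. Against trimebutine the rise was 1.82-fold (log2 change 0.86 ± 0.072 SE, 95% interval 0.71 to 1.02, limma adjusted p = 4.12e-06), and it was 1.01, 0.76 and 0.82 within replicate numbers.

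Ets1, the closest relative of Ets2, did not pass the test. It had 8.56, 8.69 and 8.85 with trimebutine and trametinib, 8.83, 8.96 and 8.88 with trimebutine, 8.79, 8.70 and 8.76 with alprostadil, and 8.79, 8.93 and 8.85 with vehicle. The groups overlapped, with a change of −0.19 ± 0.076 (SE, 95% interval −0.35 to −0.02, limma adjusted p = 0.0816). The paired differences were −0.26, −0.27 and −0.03, and without replicate 3 of the trametinib group the change was −0.26 and passed (limma adjusted p = 0.0200). Elk3, a ternary complex factor that represses SRF targets until ERK phosphorylates it, fell 1.99-fold (log2 change −0.99 ± 0.086 SE, limma adjusted p = 5.33e-06). Its values were 9.25, 9.42 and 9.51 with trimebutine and trametinib, 10.35, 10.49 and 10.31 with trimebutine, 10.12, 10.35 and 10.22 with alprostadil, and 10.315, 10.470 and 10.341 with vehicle. Every array with trametinib was below all others.

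Myc, which drives growth and ribosome production, was not shown to change. It had 8.69, 9.01 and 8.87 with trimebutine and trametinib, 9.28, 9.21 and 8.59 with trimebutine, 8.74, 8.87 and 8.69 with alprostadil, and 9.19, 9.27 and 8.68 with vehicle. Replicate 3 was lower than replicates 1 and 2 by more than 0.5 with trimebutine and with vehicle, but not in the trametinib group, and the paired differences were −0.59, −0.20 and 0.28. The change was −0.17 ± 0.187 (SE, limma adjusted p = 0.536). Its 95% interval, −0.58 to 0.24, leaves room for a fall or a small rise at the level of RNA.

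**Figure D2:**
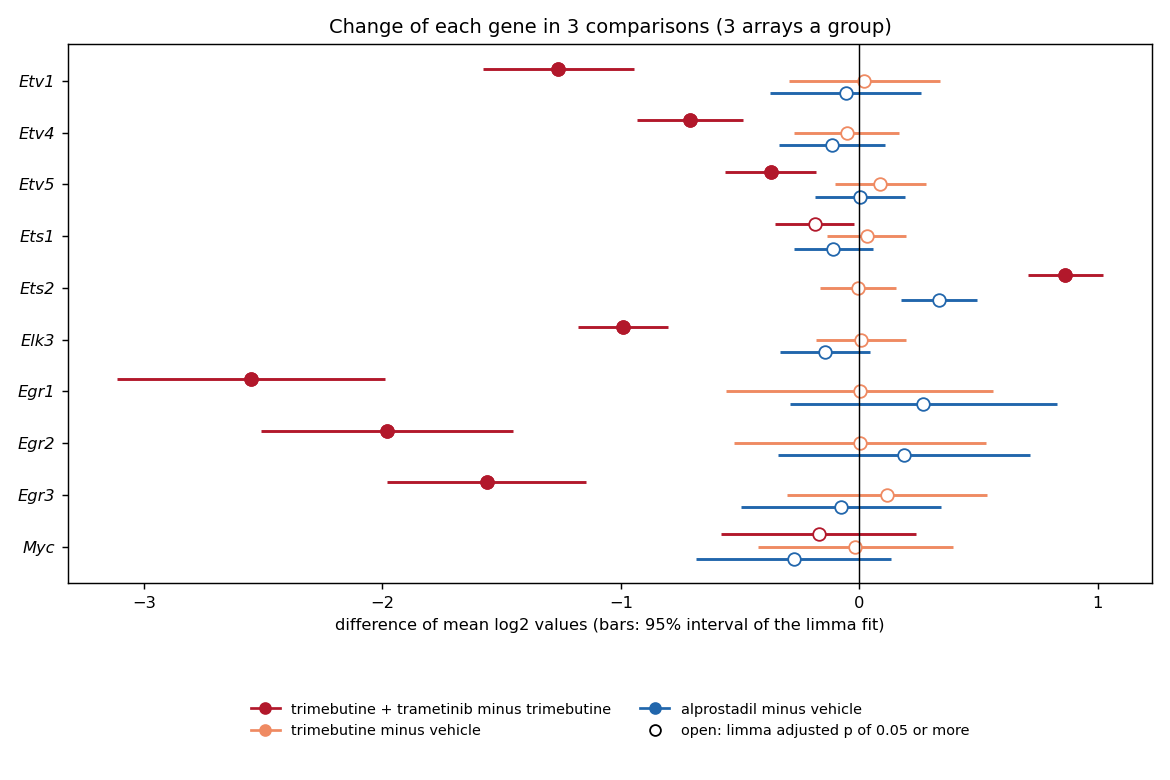
Log2 change of each of the 10 genes (horizontal axis, with 95% interval) in 3 contrasts, filled where the gene passed at a limma adjusted p under 0.05. With trametinib 7 genes lie left of 0 and Ets2 right of it at 0.86, while alprostadil and trimebutine against vehicle keep all 10 within −0.28 to 0.34.

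The same 8 genes passed against the 2 groups that lacked trimebutine. Against vehicle, 7 were lower and Ets2 was higher (35.0% of all tested genes passed, 17.5% in each direction), with Egr1 at −2.55, Egr2 at −1.98, Egr3 at −1.45, Etv1 at −1.24, Elk3 at −0.98, Etv4 at −0.76 and Ets2 at 0.86. Against alprostadil again 7 were lower and Ets2 higher (37.9% of all tested genes passed, 19.6% higher and 18.2% lower). Here Egr1 was 7.06-fold lower (log2 change −2.82, limma adjusted p = 6.96e-06) and Egr2 −2.17 (limma adjusted p = 3.16e-05). These contrasts share the trametinib arrays and are therefore not separate evidence. A moderated F test over the 4 groups called 8 of the 10 genes, leaving out Ets1 and Myc, beside 32.5% of all tested genes.

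Alprostadil against vehicle called none of the 10 genes (limma adjusted p under 0.05) and 0.389% of all tested genes. At an unadjusted p under 0.05 it was 1 of 10, Ets2, beside 6.97% of all tested genes. With the replicate number as a block it was 3 of 10 (Ets2, Egr1 and Elk3), beside 13.2%. Ets2 was 1.26-fold higher with alprostadil (log2 change 0.34 ± 0.072 SE, 95% interval 0.18 to 0.49, limma unadjusted p = 0.000667, adjusted p = 0.104), and it was higher in 3 of 3 replicate numbers, by 0.37, 0.35 and 0.29. The 3 alprostadil arrays lay above the 3 vehicle arrays, as for 5.41% of all tested genes. With the block Ets2 passed (limma adjusted p = 0.0136), beside 1.88% of all tested genes. That call held in the blocked fit without alprostadil replicate 3 (0.0402) and was lost without any of the other 5 arrays of the contrast (up to 0.0899).

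The Ets2 level with trimebutine and trametinib was above that with alprostadil by 0.53 ± 0.072 (SE, 95% interval 0.37 to 0.68, limma adjusted p = 0.000156). Since both are set against the same vehicle, this difference also tests whether their changes from vehicle differ in size. For Egr1 the point estimates against vehicle had opposite signs, −2.55 for trimebutine with trametinib and 0.27 for alprostadil (95% interval −0.29 to 0.83), of which the second did not pass (limma adjusted p = 0.898).

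In the other genes alprostadil gave changes from −0.28 for Myc to 0.27 for Egr1, and the groups overlapped. Egr1 was higher in each of the 3 replicate numbers, by 0.06, 0.47 and 0.28, and Egr2 by 0.13, 0.27 and 0.16. Myc was lower in replicates 1 and 2, with differences of −0.445 and −0.40, and differed by 0.02 in replicate 3, and its interval ran from −0.69 to 0.13 (limma adjusted p = 0.839). Elk3 was lower in each replicate number, with differences of −0.19, −0.12 and −0.12 and a change of −0.145 (limma adjusted p = 0.821). None of these passed.

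Trimebutine against vehicle called none of the 10 genes and 0 of all tested genes (0%) by limma. At an unadjusted p under 0.05 it was 0 of the 10, beside 1.05% of all tested genes, or 1.85% with the replicate number as a block. Changes ran from −0.05 for Etv4 to 0.115 for Egr3, with a median of 0.005. The groups overlapped for all 10 genes, while 4.23% of all tested genes did not overlap. Without the block, 95% intervals ranged in width up to that of Egr1, −0.56 to 0.56, and that of Ets2 was −0.16 to 0.15. Within replicate numbers the differences ran from −0.20 to 0.22.

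**Figure D3:**
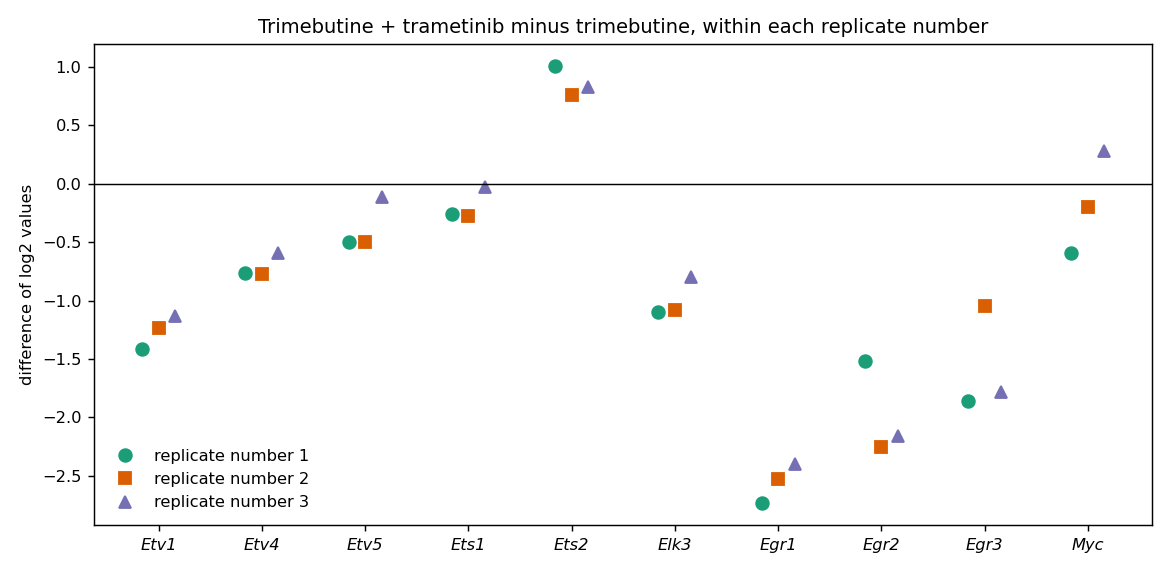
Difference in log2 expression (vertical axis) between trimebutine with trametinib and trimebutine alone within each of the 3 replicate numbers, for the 10 genes along the horizontal axis. All 3 differences are below 0 in 8 genes and above 0 in Ets2, and Myc spans −0.59 to 0.28.

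The level of several of these genes differed between replicate numbers. Over the 9 arrays without trametinib, Egr1 averaged 9.84 in replicate 1, 9.18 in replicate 2 and 9.15 in replicate 3. Egr2 and Egr3 were likewise highest in replicate 1, at 12.445 and 8.71, beside 12.09 and 8.26 in replicate 2 and 12.11 and 8.35 in replicate 3. Etv1 was highest in replicate 3, at 10.54 against 10.26 in replicate 1, and Myc was lowest there, at 8.65 against 9.11 in replicate 2. With the number as a block the SE of a contrast was 0.09 in place of 0.256 for Egr1 and 0.068 in place of 0.145 for Etv1, but 0.07 in place of 0.076 for Ets1. With the block 8 of the 10 genes passed against trimebutine, beside 42.0% of all tested genes.

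Cultures differed in what else they held or did. All 10 proliferation markers fell with trametinib, in a contrast where 33.4% of all tested genes passed and 16.6% were lower. Their mean log2 level was 7.43 to 7.52 with trimebutine and trametinib and 9.31 to 9.67 with trimebutine. The part of this in the changes of the 10 factors was not tested. Dermal precursor markers, of which 9 of the 11 measured were above the limit on every array, had mean levels of 10.74 to 10.80 with trimebutine and trametinib and 10.71 to 10.78 with trimebutine. Single dermal markers moved both ways: Twist2 (0.825), Col1a1 (0.555) and Thy1 (0.50) rose, Pdgfra (−0.79) and Twist1 (−0.29) fell, and the other 6 did not pass. Macrophage markers, 6 of 6 measured, averaged 7.25 to 8.01 with trimebutine and trametinib and 7.525 to 8.501 with trimebutine, and their part was not tested either. Of these 6, Cd68 fell (−1.03, limma adjusted p = 5e-05) and the other 5 did not pass. With the replicate block Ptprc (−0.47, limma adjusted p = 0.00425) and Csf1r (0.31, limma adjusted p = 0.0307) passed too. Endothelial markers, 3 measured of 5, averaged 5.85 to 6.04 with trimebutine and trametinib and 5.76 to 5.83 with trimebutine, and each of the 3 was below the limit on some arrays. Fewer cells of a type and less RNA per cell cannot be told apart in these bulk samples. Array medians ran from 6.409 to 6.505.

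Other genes that report on ERK signalling mostly fell with trametinib. Among 8 ERK output genes, 6 fell, 1 rose and 1 did not pass, beside 16.6% of all tested genes lower and 16.8% higher. The median change was −1.04, beside 0.03 over all tested genes. The falls included Dusp6, an ERK phosphatase (−3.23, limma adjusted p = 4e-08), Spry4, a feedback inhibitor (−2.01, limma adjusted p = 7.05e-08), and Epha2, an ephrin receptor (−1.205, limma adjusted p = 4.52e-07). The gene that rose was Spry2 (0.58), and Epha4 (−0.57) did not pass (limma adjusted p = 0.0783, or 0.00106 with the replicate block). All 7 protease and inhibitor genes with ETS-linked control that were tested fell, with a median change of −3.36. They were led by Mmp13, Mmp3 and Mmp10 at −5.75, −5.55 and −3.74, and the smallest change was that of the inhibitor Timp1, −0.29. These lists were chosen with results of these data known and are not independent evidence of a direction.

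**Figure D4:**
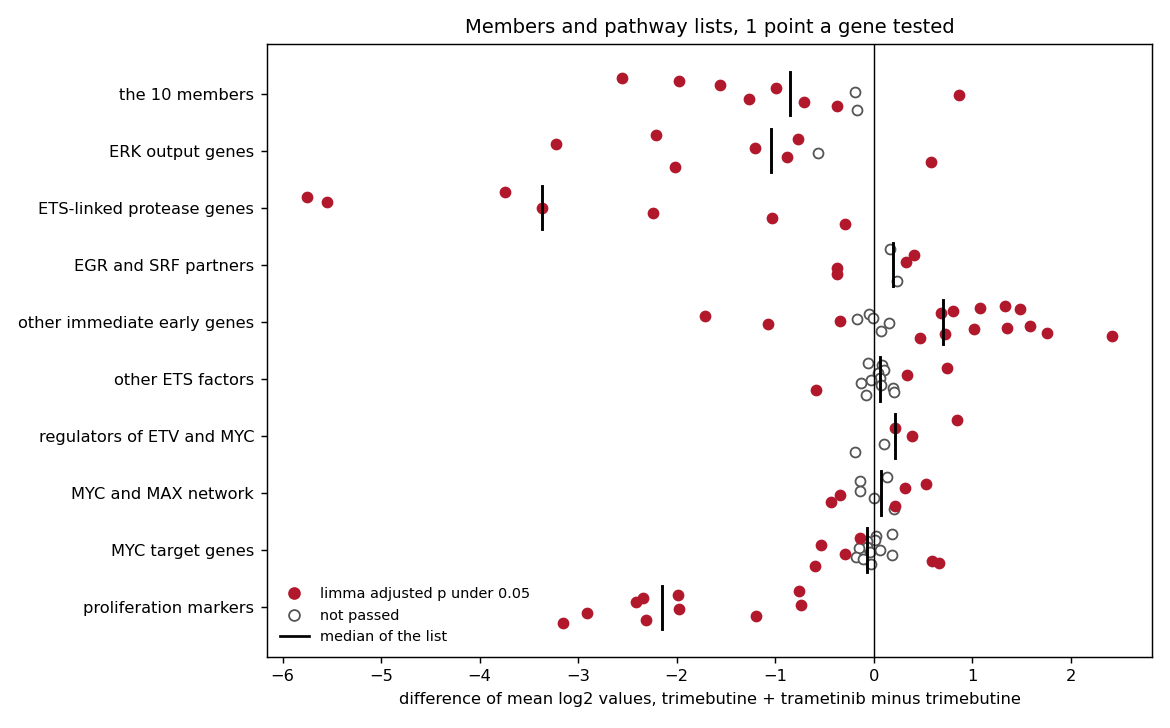
Log2 change with trimebutine and trametinib against trimebutine for the 10 factors and for 9 gene lists, 1 point a gene, with a bar at each list's median. The median lies at −0.85 for the 10 factors, −3.36 for the proteases and −2.15 for the proliferation markers, and at 0.71 for the other immediate early genes.

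Immediate early genes outside the EGR family mostly went the other way. Of 20 tested, 12 rose, 3 fell and 5 did not pass, beside 16.8% of all tested genes higher and 16.6% lower. The median change was 0.71. Klf2 and Klf6, Krüppel-like factors, rose by 1.58 (limma adjusted p = 6.77e-08) and 1.02 (8.49e-07). The 3 that fell were Fosl1, an AP-1 subunit (−1.71, limma adjusted p = 2.18e-07), Klf10 (−1.07) and Jun (−0.34). The 5 that did not pass were Fosb (−0.05), Junb (0.16), Ier2 (−0.007), Ier3 (−0.17) and Maff (0.07). Fos, chosen for mention after its values were seen because SRF controls it as it does Egr1, rose by 0.69.

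Of 6 partners of EGR and SRF, 2 were higher, 2 lower and 2 not past the threshold, beside 33.4% of all tested genes past it, and the changes ran from −0.375 to 0.41. Nab1 and Nab2, corepressors that bind EGR proteins, fell by 0.375 (limma adjusted p = 0.003) and by 0.369 (limma adjusted p = 0.00542). The SRF coactivators Mrtfa (0.41, limma adjusted p = 0.00292) and Myocd (0.33, limma adjusted p = 0.00855) were higher. Egr4 (0.16) and Srf (0.24, limma adjusted p = 0.11) did not pass, and Srf passed with the replicate block (adjusted p = 0.0119).

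Of 5 tested regulators of the PEA3 factors and MYC, 3 rose, none fell and 2 did not pass, beside 33.4% of all tested genes past the threshold. Cic, the repressor of the PEA3 genes, was higher by 0.39 (limma adjusted p = 0.00481), and its partners Atxn1 and Atxn1l by 0.85 (limma adjusted p = 0.00026) and 0.21 (limma adjusted p = 0.0286). Det1, of the ubiquitin ligase that degrades PEA3 proteins, and Usp28, a deubiquitinase of MYC, did not pass, and Usp28 (−0.19) did with the replicate block (limma adjusted p = 0.0437). Most of the 14 other ETS genes, 11 of them, did not pass, beside 33.4% of all tested genes that did. The median change was 0.07. Elf4 (0.74, limma adjusted p = 0.000122) and the ERK-controlled repressor Erf (0.33, limma adjusted p = 0.0176) were higher. Gabpa, an activator of mitochondrial genes, was lower (−0.59, limma adjusted p = 0.000116). Another 4, Erg, Elf3, Elf5 and Ehf, were below the limit on dim signals.

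In the MYC and MAX network 10 genes were tested, of which 3 rose and 2 fell, beside 33.4% of all tested genes past the threshold. Mlxip, a glucose-sensing partner of MLX (0.53, limma adjusted p = 0.000135), Mnt, a MAX-binding repressor (0.32, limma adjusted p = 0.00848), and Mycl (0.215, limma adjusted p = 0.0384) were higher. The MAX-binding repressors Mxi1 (−0.43, limma adjusted p = 0.00134) and Mxd3 (−0.34, limma adjusted p = 0.0129) were lower. Of 19 genes known as MYC targets, 4 fell, 2 rose and 13 did not pass, a share of calls near the 33.4% of all tested genes, and the median was −0.06. The values of those that passed are given as a description. Tfrc, the transferrin receptor (−0.60, limma adjusted p = 2.49e-05), the chaperonin Hspd1 (−0.54, limma adjusted p = 0.000223), Nop58 of box C/D ribonucleoproteins (−0.29, limma adjusted p = 0.00346) and Cdk4 (−0.14, limma adjusted p = 0.0479) fell, while Srm of polyamine synthesis (0.67, limma adjusted p = 0.000575) and Shmt2 of serine metabolism (0.595, limma adjusted p = 0.00613) rose.

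With alprostadil against vehicle, 2 of the 20 other immediate early genes passed and rose, beside 0.389% of all tested genes past the threshold. They were the nuclear receptor Nr4a1 (2.46, limma adjusted p = 0.000341) and Ier3 (0.59, limma adjusted p = 0.0197). With the replicate block 7 of the 20 passed, beside 1.88% of all tested genes. Phlda1, of the ERK output genes, rose by 1.09 (limma adjusted p = 0.00348) and was the only one of its 8. No gene of the other lists passed without the block. With it Twist2 (0.33, limma adjusted p = 0.0159), Atxn1 (0.30, limma adjusted p = 0.0438) and the macrophage marker Adgre1 (−0.83, limma adjusted p = 0.00544) passed. With trimebutine no gene of any list passed.

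The genes with the most similar pattern were sought for 1 gene of each family by Pearson's r of log2 values over the 12 arrays. Egr1 was followed most closely by Slco2a1, a prostaglandin transporter (r = 0.996), Gask1b (r = 0.996) and Cldn1, a tight junction claudin (r = 0.994). Since the arrays with trametinib stand apart, such an r mostly carries that gap. Within groups the 3 correlations were 0.971, 0.957 and 0.972. The like genes were picked by r over the same arrays, so within-group values here and below are partly set by that choice. For Etv4 they were Supt7l (r = 0.978), Amigo2 (0.973) and Septin9 (0.973), with within-group values of 0.816, 0.82 and 0.806. Myc was closest to Thoc5 (r = 0.944), Alkbh5 (0.929) and Amph (0.925), with within-group values of 0.944, 0.964 and 0.982, and none of those 3 genes passed with trametinib. These are descriptions, and arrays that share a replicate number are not independent. Egr2 ranked 40th among all tested genes in likeness to Egr1 (r = 0.98), Egr3 ranked 177th (0.959), and Ets2 ran against it (−0.876).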

How the data were processed

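Biotin-labelled total RNA of 12 cultures was hybridised, per the labels, to the Rat Gene 2.0 ST array of Affymetrix. The authors deposited log2 expression values for which the submitters' processing notes name oligo and RMA, without versions or settings. Since RMA brings all arrays to one distribution, these values cannot show whether the cells' total RNA changed, and folds of dim probes are compressed.

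Of 36685 features, 18511 had a single symbol, 575 had several and 17599 none. Symbols were updated through the platform annotation and the GRCr8 gene table (18394 matched, 117 kept). The brightest feature of a gene was used. The 13636 genes tested had a mean at or above the 25th percentile (5.83) of features with a symbol. A single limma fit (limma 3.58.1, R 4.3.3; Python 3.11.15 for sequences) held all 12 arrays with 4 group means, 8 residual degrees of freedom, and two-sided moderated tests with Benjamini-Hochberg adjustment over all tested genes. It was tested on simulated data.

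Replicate numbers came from the sample titles. All 18 same-numbered pairs of arrays deviated together from their group means (r 0.21 to 0.808), and the 36 other pairs had r from −0.708 to 0.1, and the numbers were therefore treated as pairing the arrays. The fit behind the reported values has no block, so that its p-values, SEs and intervals count differences between replicate numbers as spread; the fit with the replicate block was an alternative, and values from it are named as such. The p-values measure the spread between these cultures.

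The 10 genes, the lists and the tests were chosen with earlier results of these data known. All 10 genes are named; from each list up to 3 genes with the smallest p, and those that complete a count of 5 or fewer. Further names were chosen after their values were seen. Coordinates are given only for the promoter sequences, since no build is named for the array's annotation.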

Additional observations from a re-analysis of the deposited data

How the results depend on the processing

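In the 5 comparisons between 2 groups, 979 of 1000 values of the 10 genes under an alternative kept their call, 15 lost it and 6 gained it. None that passed changed sign, and 56 values that passed in neither setting did. Filtering at the 50th percentile or not at all, quantile normalization again, median centring, a prior both trended and robust, and averaging features changed no call of the 10 genes. With the replicate block, alprostadil against vehicle called 1 of the 10 genes in place of 0 (Ets2) and 257 genes in all in place of 53. A fit of those 2 groups alone called 29 genes, and leaving out each array in turn 30 to 42. The block with an array left out, chosen after seeing the data, called 128, 115 and 208 genes without alprostadil replicates 1, 2 and 3, and 119, 118 and 131 without vehicle replicates 1, 2 and 3, with 0 to 1 of the 10: Ets2 passed without alprostadil replicate 3 (adjusted p = 0.0402) and missed in the other runs (up to 0.0899). The block changed no other call of the 10 genes. Fitted with 2 groups alone, Etv5 missed for trimebutine with trametinib against vehicle (adjusted p = 0.0683, 7 of 10 genes called). With an array left out, 8 to 9 of the 10 genes were called against trimebutine, 7 to 9 against vehicle, 7 to 8 against alprostadil and 7 to 8 by the F test. Here Etv5 was lost, as in the report, and by the F test without replicate 1 or 2 of the trametinib group (adjusted p = 0.0894 and 0.124), and Ets1 was gained without replicate 3 of the trametinib group (−0.26, adjusted p = 0.0200, against trimebutine; −0.23, adjusted p = 0.0335, against vehicle). The causes were not tested. No array of the 10 genes was below the limit on dim signals, but background was not measured. The trametinib group means of Egr1, Etv4 and Egr3 were under the 50th percentile (7.09), where folds may be compressed.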

Other observations

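Spi1 and Fli1, ETS factors of blood and endothelial cells, varied with the replicate number in every group. Spi1 had log2 values of 6.76, 7.93 and 8.58 in replicates 1, 2 and 3 with trimebutine and trametinib, 6.81, 7.87 and 8.82 with trimebutine, 6.68, 7.66 and 8.79 with alprostadil, and 6.98, 7.69 and 8.67 with vehicle. Fli1 had 6.77, 7.45 and 7.63 with trimebutine and trametinib, and 6.64, 7.17 and 7.39 with vehicle. Both were lowest in replicate 1 of each group and highest in replicate 3.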
